A study of Homo sapiens with 12 samples.

Results

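The genes described here are 37 genes of the endoplasmic reticulum (ER) protein-folding system: its stress sensors, its chaperones and folding enzymes, its translocation channel and its degradation machinery (ERAD). They are given by a list of symbols, and all 37 were found among the 60649 genes of the deposited table. Each of the 37 also passed the filter on low counts, which kept 17576 genes for testing. By role the list holds 4 sensors, 18 chaperones and folding enzymes, 4 translocation genes and 11 degradation genes. XBP1, a target of the sensor IRE1, is counted with the sensors.

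Proteins that are secreted or sit in membranes enter the ER through the Sec61 channel, are folded there by chaperones such as BiP and by disulfide isomerases, and are checked by the calnexin and calreticulin cycle, which reads the sugar chains on glycoproteins. Proteins that fail to fold are passed back out through membrane ubiquitin ligase complexes and destroyed by the proteasome. The unfolded protein response adjusts this capacity through the sensors ATF6, IRE1 and PERK, and IRE1 acts by splicing the XBP1 transcript. Secretory cells and many tumour cells depend on it.

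The cells were MDA-MB-231, a long-established human breast cancer line that lacks hormone receptors and has mesenchymal features. RNA sequencing covered 4 groups of 3 libraries, 12 in all, named Control, SIRT1 KD, IGF2BP2 KD and, for cells with both knockdowns, SIRT1+IGF2BP2 double KD (double KD below). SIRT1 removes acetyl groups from proteins in a reaction that uses NAD. IGF2BP2 binds messenger RNAs and stabilises many of them. The series asks which genes depend on each of them. Control cells carried a sham short hairpin RNA (shRNA), SIRT1 KD cells an shRNA against SIRT1, IGF2BP2 KD cells an shRNA against IGF2BP2, and double KD cells both. All 4 groups, Control included, were infected with lentivirus packaged in HEK-293T cells in the presence of Polybrene, grown in RPMI-1640 medium with fetal serum and held under puromycin, and the labels give no further treatment. Not given in the sources used here are the hairpin sequences, the number of hairpins per target and whether a replicate was an infection of its own. The p-values therefore reflect how far these libraries spread, which may be technical.

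Values are read counts per gene divided by a size factor per library (normalised counts). Between 19522606 and 22509142 reads were assigned to genes in 11 libraries and 15243152 in double KD replicate 2, which also stood apart from its partners (SD of log2 differences to them 0.347, against 0.120 to 0.235 elsewhere) and had 1.18% mitochondrial reads against 1.99% to 2.57%. The targets followed the labels. SIRT1 stood at 799, 841 and 863 in Control, 547, 496 and 539 in SIRT1 KD, 763, 691 and 730 in IGF2BP2 KD, and 396, 380 and 436 in double KD. IGF2BP2 stood at 3045, 3055 and 3127 in Control, 3791, 3759 and 3720 in SIRT1 KD, 709, 841 and 736 in IGF2BP2 KD, and 992, 715 and 884 in double KD. SIRT1 mRNA was thus at 63.2% of Control in SIRT1 KD and at 48.4% in double KD. Mesenchymal markers were present in every library (VIM 17403 to 28125, CD44 14105 to 19934), and of 7 luminal or epithelial markers the hormone receptors ESR1 and PGR were at 1.03 to 7.66 and 0 to 0.964 and CDH1 at 0.890 to 24.1. The other 4 were present: EPCAM at 134 to 243, GATA3 at 121 to 221, ERBB2 at 2038 to 2550 and KRT8 at 9946 to 14088. Of the 5 fibroblast markers, COL3A1, DCN and PDGFRA were at 0 in at least 1 library. The list's summed level was 247 to 251 in Control, 275 to 297 in IGF2BP2 KD and 314 to 361 in SIRT1 KD. In double KD it was 554 to 1006, nearly all of it COL1A1, and its part in the results was not tested. Immune and packaging-cell markers summed to at most 27.8 and 7.66.

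Taken as a sum, transcripts of the ER folding system were lower in all 3 knockdown groups, and lowest in the double KD. The 37 genes together summed to 229149, 235380 and 233916 normalised counts in Control and to 188016, 167537 and 179094 in SIRT1 KD. Their sums were 198079, 195312 and 198938 in IGF2BP2 KD and 131930, 144125 and 144209 in double KD. As a share of all normalised counts this was 1.15% in Control, 0.872% in SIRT1 KD, 0.99% in IGF2BP2 KD and 0.698% in double KD. The 4 groups did not overlap in this sum. It is weighted to abundant chaperones, which made 192621 of the mean of 232815 in Control. The 4 translocation genes alone had mean sums of 11264 in Control, 11868 in SIRT1 KD, 11339 in IGF2BP2 KD and 10818 in double KD. These are bulk measurements, so fewer cells making a transcript and less of it per cell cannot be told apart.

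Gene by gene, differences were tested with limma on log2(normalised count + 1), and a gene is said to have risen or fallen where its Benjamini-Hochberg adjusted p over all 17576 genes was under 0.05. Against Control, 20 of the 37 genes fell and 2 rose in SIRT1 KD, where 15.7% of all genes fell and 12.9% rose. In IGF2BP2 KD 11 fell and 0 rose, where 9.39% of all genes fell and 6.86% rose. In double KD 26 fell and 0 rose, where 17.5% of all genes fell and 16.7% rose. The median log2 change of the 37 was -0.30, -0.16 and -0.50 in these comparisons, and that of all genes tested was -0.0018, -0.0037 and 0.0057. At an unadjusted p under 0.05, 1 gene was higher in IGF2BP2 KD and 0 in double KD; edgeR called 0 and 0 rises and DESeq2 1 and 0. The IGF2BP2 KD count of called genes moved with 1 library of another group. Without double KD replicate 2 it was 18 genes, with OS9 higher among them, and the other single omissions gave 9 to 14. With the 2 groups fitted alone it was 19, again with OS9 higher. Calls over all genes moved too. In the fit of all 12 libraries 1651 genes fell and 1206 rose. Without double KD replicate 2 these were 2751 and 2286, and with the 2 groups alone 2771 and 2345. The double KD had the lowest mean of the 4 groups in 26 of the 37 genes, SIRT1 KD in 7, IGF2BP2 KD in 3 and Control in 1. The lowest group was not counted over all genes, so these numbers have no background beside them.

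The genes fell into patterns of calls against Control that cut across their roles. How common each pattern is over all genes was not counted, so the numbers below only describe the members. In 13 genes, among them ATF6, CALR and SEL1L, expression fell in SIRT1 KD and in double KD but was not called in IGF2BP2 KD. Of these 13, DNAJC3, EDEM3 and SEL1L did fall in IGF2BP2 KD with the 2 groups fitted alone and without double KD replicate 2. In 6 genes, HSPA5, HSP90B1, HYOU1, MANF, PDIA4 and UGGT1, expression fell in all 3 knockdown groups. In 3 genes, ERN1, XBP1 and DNAJB9, it fell in IGF2BP2 KD and double KD without a call in SIRT1 KD. EDEM1 and HERPUD1 rose in SIRT1 KD and fell in double KD. The remaining calls were EIF2AK3 and ERO1A in IGF2BP2 KD, ERO1B and SEC61B in double KD and EDEM2 in SIRT1 KD, and 8 genes were called in none of the 3.

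**Figure D1:**
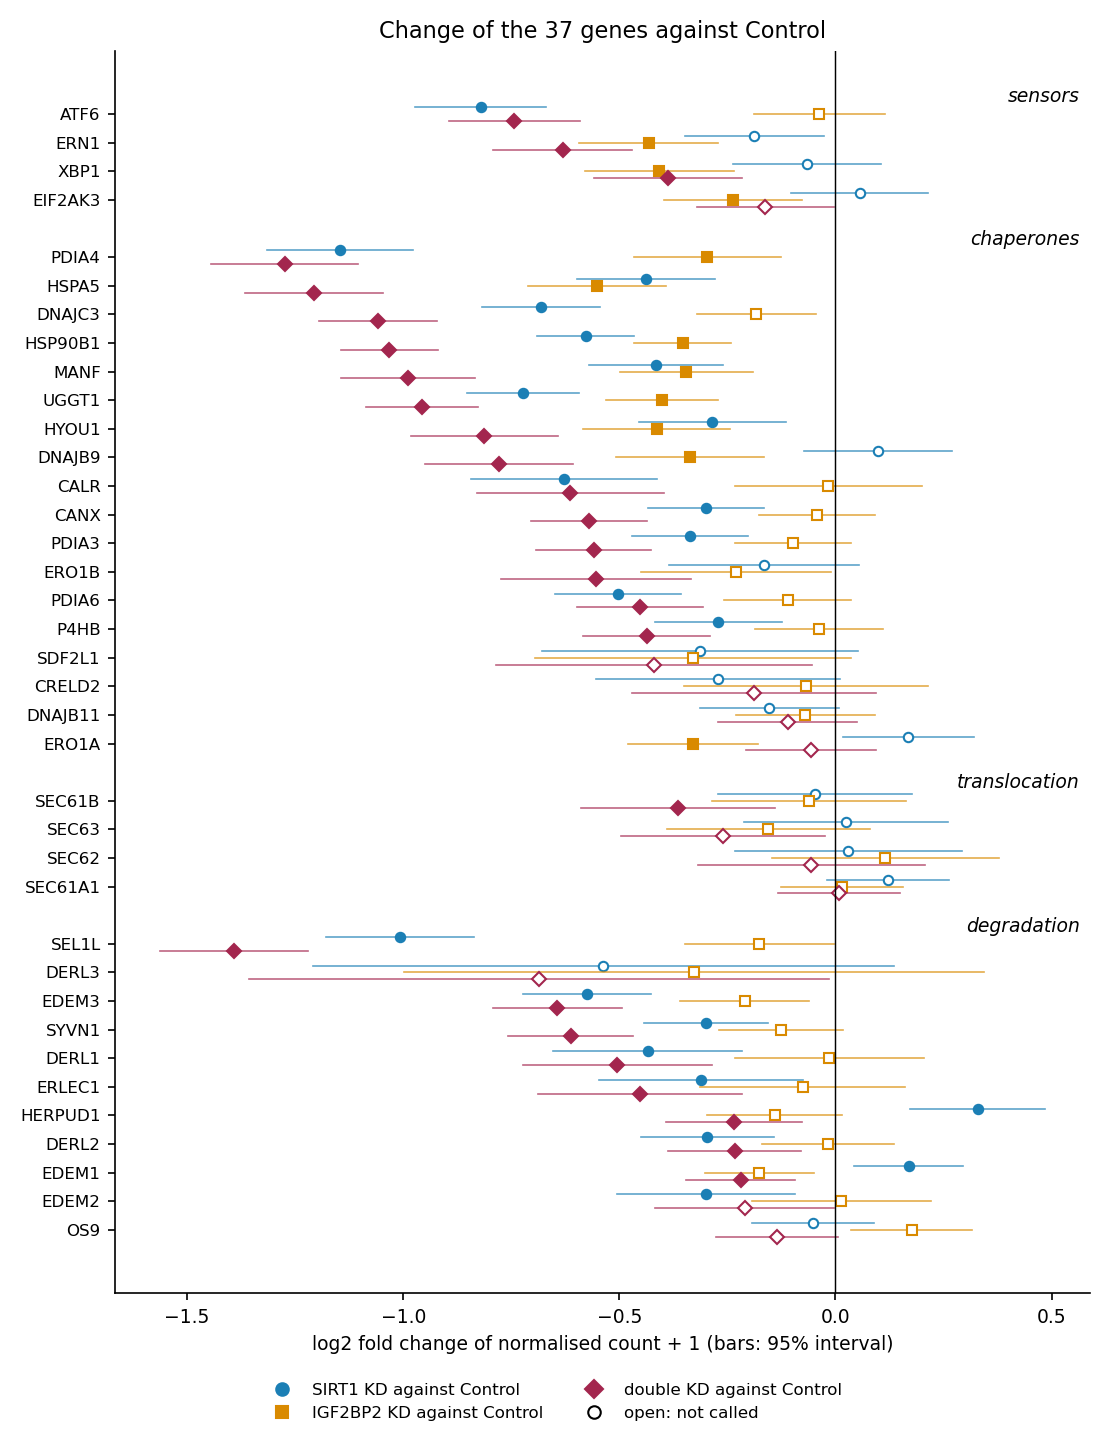
Log2 fold change against Control (x axis, with 95% interval bars) of each of the 37 genes (y axis) in SIRT1 KD (circles), IGF2BP2 KD (squares) and double KD (diamonds), grouped by role; filled symbols passed the test. Most filled symbols lie left of 0, PDIA4 and SEL1L reach below -1 in SIRT1 KD and double KD, and the translocation genes lie close to 0 apart from SEC61B in double KD.

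The sensors differed in the knockdown in which they fell. ATF6, a membrane-bound factor that is cut in the Golgi so that its free part can switch on chaperone genes, lies at chr1:161766294-161964070 on the plus strand (ENSG00000118217.7). It stood at 2695, 2658 and 2730 normalised counts in Control and 2724, 2465 and 2695 in IGF2BP2 KD, against 1535, 1478 and 1563 in SIRT1 KD and 1677, 1437 and 1730 in double KD. Every library with the SIRT1 hairpin lay below every library without it. ATF6 fell to 56.6% of Control in SIRT1 KD (log2 fold change -0.82, 95% interval -0.97 to -0.67, adjusted p = 1.2e-07) and to 59.9% in double KD (-0.74, adjusted p = 2.6e-07), and its difference in IGF2BP2 KD was -0.04 (-0.19 to 0.11, adjusted p = 0.80).

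The other sensor genes fell in IGF2BP2 KD. ERN1, which encodes the kinase and RNase IRE1, stood at 636, 579 and 565 in Control, 518, 516 and 525 in SIRT1 KD, 416, 445 and 457 in IGF2BP2 KD, and 383, 386 and 378 in double KD. No group overlapped another, and the gene fell in IGF2BP2 KD (-0.43, -0.59 to -0.27, adjusted p = 6.2e-04) and double KD (-0.63, adjusted p = 3.7e-06), while SIRT1 KD, also below Control in every library, did not pass the test (-0.19, adjusted p = 0.075). It passed there with the 2 groups fitted alone (adjusted p = 0.00996) and without double KD replicate 2 (0.0298). XBP1, the transcription factor whose mRNA IRE1 splices, stood at 2323, 2269 and 2406 in Control, 2373, 2087 and 2237 in SIRT1 KD, 1813, 1686 and 1779 in IGF2BP2 KD, and 1560, 2019 and 1796 in double KD. SIRT1 KD libraries overlapped Control, and libraries with the IGF2BP2 hairpin lay below both. XBP1 fell by 0.41 on the log2 scale in IGF2BP2 KD (adjusted p = 0.0018) and by 0.39 in double KD (adjusted p = 0.0011); gene counts do not separate its spliced from its unspliced form. EIF2AK3, which encodes the translation-blocking kinase PERK, stood at 514, 527 and 494 in Control, 546, 515 and 534 in SIRT1 KD, 441, 440 and 421 in IGF2BP2 KD, and 447, 487 and 438 in double KD. It fell in IGF2BP2 KD by 0.24 (adjusted p = 0.039), a call lost in 9 of the 12 fits that each left out 1 library (adjusted p = 0.0508 to 0.139) and kept without double KD replicate 1, 2 or 3. In double KD against Control EIF2AK3 did not pass the test (-0.16, adjusted p = 0.11).

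Set directly against IGF2BP2 KD, SIRT1 KD had lower ATF6 (-0.78, 95% interval -0.93 to -0.63, adjusted p = 1.1e-07) and higher XBP1 (0.34, 0.17 to 0.51, adjusted p = 0.0026), EIF2AK3 (0.29, 0.13 to 0.45, adjusted p = 0.0047) and ERN1 (0.24, 0.08 to 0.40, adjusted p = 0.017). The ERN1 difference did not pass without IGF2BP2 KD replicate 1 (adjusted p = 0.0776) or SIRT1 KD replicate 3 (0.0553). Across all 37 genes, 7 were higher and 16 lower in SIRT1 KD than in IGF2BP2 KD, where 19.3% of all genes were higher and 19.3% lower.

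The chaperones held the most abundant transcripts of the list and most of the falls. HSPA5 encodes BiP, the ER's main Hsp70 chaperone, which also holds the sensors inactive, and it lies at chr9:125234853-125241330 on the minus strand (ENSG00000044574.9). It stood at 59008, 63055 and 59943 normalised counts in Control, 48596, 41579 and 44385 in SIRT1 KD, 40854, 42057 and 41163 in IGF2BP2 KD, and 23039, 28617 and 27496 in double KD. Each knockdown group lay below Control, the single knockdowns overlapped each other, and the double KD lay below both. HSPA5 fell to 73.9% of Control in SIRT1 KD (-0.44, 95% interval -0.60 to -0.28, adjusted p = 2.4e-04) and to 68.2% in IGF2BP2 KD (-0.55, -0.71 to -0.39, adjusted p = 5.5e-05). In the double KD it reached 43.5% (-1.21, -1.37 to -1.05, adjusted p = 1.0e-09).

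Most of its partners were also lowest in the double KD. HSP90B1, the ER's Hsp90 chaperone GRP94, stood at 21300, 21876 and 21510 in Control, 14850, 14094 and 14405 in SIRT1 KD, 16993, 16571 and 17068 in IGF2BP2 KD, and 10544, 10281 and 10802 in double KD. All 4 groups were separate, with falls of 0.58, 0.35 and 1.03 on the log2 scale (adjusted p = 2.0e-07, 1.4e-04 and 9.4e-11). HYOU1, an Hsp110-type exchange factor for BiP, stood at 9563, 10030 and 9530 in Control, 8848, 7446 and 7676 in SIRT1 KD, 7069, 7628 and 7172 in IGF2BP2 KD, and 5019, 6302 and 5340 in double KD. It fell to 57.2% of Control in double KD (-0.81, adjusted p = 3.7e-07), to 75.1% in IGF2BP2 KD (-0.41, adjusted p = 0.0015) and to 82.3% in SIRT1 KD (-0.28, adjusted p = 0.012). The SIRT1 KD call was lost without Control replicate 2, SIRT1 KD replicate 2 or SIRT1 KD replicate 3 (adjusted p = 0.0583 to 0.0737).

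MANF, a secreted protein that binds BiP, stood at 1704, 1872 and 1836 in Control, 1404, 1274 and 1379 in SIRT1 KD, 1419, 1435 and 1404 in IGF2BP2 KD, and 820, 944 and 967 in double KD. The single knockdowns lay together below Control, and the double KD was at 50.5% of Control (-0.99, 95% interval -1.14 to -0.83, adjusted p = 9.1e-09). DNAJC3, a J-domain co-chaperone of BiP, stood at 1840, 1905 and 1818 in Control, 1170, 1157 and 1142 in SIRT1 KD, 1689, 1549 and 1666 in IGF2BP2 KD, and 837, 911 and 923 in double KD. The groups were separate, with falls of 0.68 in SIRT1 KD (adjusted p = 3.1e-07) and 1.06 in double KD (adjusted p = 8.1e-10), and IGF2BP2 KD did not pass the test (-0.18, adjusted p = 0.064). DNAJC3 passed there by DESeq2 (adjusted p = 0.0325), with the 2 groups fitted alone (0.0101) and without double KD replicate 2 (0.0116). DNAJB11, another J-domain partner of BiP, was called in no comparison in the fit of all 12 libraries. Its group means were 790 ± 27.0 (SD, n = 3), 712 ± 60.0, 753 ± 34.3 and 732 ± 31.7 in Control, SIRT1 KD, IGF2BP2 KD and double KD. With the 2 groups fitted alone it fell in SIRT1 KD (-0.15, adjusted p = 0.0259).

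**Figure D2:**
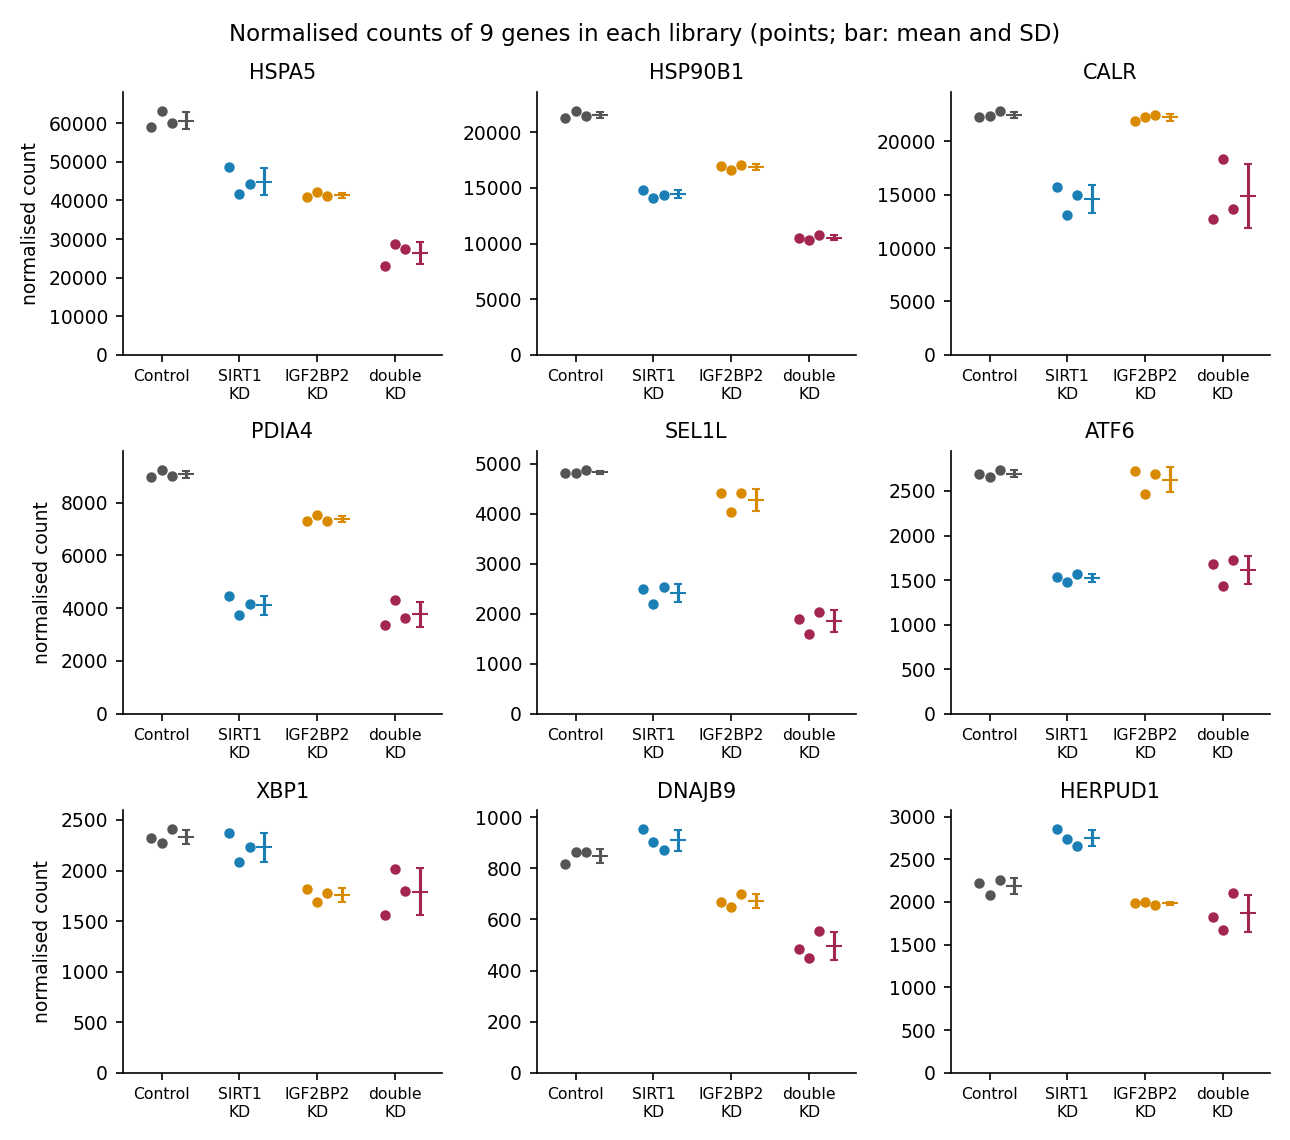
Normalised counts (y axis, from 0) of 9 of the genes in every library (points, in replicate order) of Control, SIRT1 KD, IGF2BP2 KD and double KD (x axis), with the group mean and SD to the right of the points. HSPA5 and HSP90B1 are lowest in double KD, CALR, PDIA4, SEL1L and ATF6 step down with the SIRT1 hairpin, XBP1 with the IGF2BP2 hairpin, and HERPUD1 is highest in SIRT1 KD.

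Among the disulfide isomerases, which form and rearrange disulfide bonds in folding proteins, PDIA4 (chr7:149003062-149028641, minus strand, ENSG00000155660.11) changed most. It stood at 8985, 9217 and 9003 in Control, 4443, 3723 and 4153 in SIRT1 KD, 7314, 7526 and 7314 in IGF2BP2 KD, and 3366, 4300 and 3638 in double KD. SIRT1 KD and double KD overlapped each other and lay far below the other groups. PDIA4 fell to 45.3% of Control in SIRT1 KD (-1.15, 95% interval -1.32 to -0.98, adjusted p = 7.6e-09), the largest fall of the 37 genes there, and to 41.6% in double KD (-1.27, adjusted p = 1.1e-09). It fell to 81.4% in IGF2BP2 KD (-0.30, adjusted p = 0.016), a call lost in 5 of the 12 fits without 1 library: any Control library, IGF2BP2 KD replicate 1 or IGF2BP2 KD replicate 3 (adjusted p = 0.0516 to 0.0669).

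PDIA6 stood at 3930, 4071 and 4047 in Control, 2978, 2711 and 2813 in SIRT1 KD, 3860, 3510 and 3798 in IGF2BP2 KD, and 2686, 3195 and 2946 in double KD. Both groups with the SIRT1 hairpin lay below both groups without it (-0.50 in SIRT1 KD, adjusted p = 2.3e-05; -0.45 in double KD, adjusted p = 5.7e-05). PDIA3, the isomerase that works with calnexin and calreticulin, stood at 4619, 4694 and 4735 in Control, 3876, 3573 and 3683 in SIRT1 KD, 4424, 4254 and 4445 in IGF2BP2 KD, and 2921, 3360 and 3266 in double KD. It fell in SIRT1 KD (-0.34, adjusted p = 5.4e-04) and double KD (-0.56, adjusted p = 1.7e-06). P4HB, the founding member of the isomerase family, had group means of 13065 ± 228, 10839 ± 657, 12727 ± 435 and 9681 ± 947 in Control, SIRT1 KD, IGF2BP2 KD and double KD and fell in SIRT1 KD (-0.27) and double KD (-0.44).

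The oxidases that pass oxidising power to these enzymes differed from them. ERO1A had group means of 3969 ± 154, 4460 ± 52.2, 3163 ± 242 and 3823 ± 330. It fell in IGF2BP2 KD (-0.33, adjusted p = 0.0036), did not pass the test in SIRT1 KD (0.17, adjusted p = 0.089) or double KD (-0.06, adjusted p = 0.59), and was higher in SIRT1 KD than in IGF2BP2 KD by 0.50 (95% interval 0.35 to 0.65, adjusted p = 2.2e-05). Against Control, ERO1A rose in SIRT1 KD with the 2 groups fitted alone (adjusted p = 6.2e-04) and without double KD replicate 2 (0.0143). ERO1B stood at 194, 217 and 246 in Control, 189, 209 and 186 in SIRT1 KD, 187, 185 and 185 in IGF2BP2 KD, and 150, 147 and 147 in double KD. The double KD libraries lay below all 9 others, and ERO1B fell there by 0.55 (adjusted p = 4.3e-04).

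The lectin chaperones of the glycoprotein cycle stepped down with the SIRT1 hairpin. CALR, calreticulin, stood at 22243, 22396 and 22789 in Control and 21877, 22308 and 22498 in IGF2BP2 KD, against 15719, 13103 and 14932 in SIRT1 KD and 12676, 18320 and 13651 in double KD. The libraries with the SIRT1 hairpin all lay below the others, although double KD replicate 2 stood higher than its partners. CALR fell to 64.9% of Control in SIRT1 KD (-0.63, adjusted p = 1.7e-04) and 66.2% in double KD (-0.61, adjusted p = 1.7e-04), and its difference in IGF2BP2 KD was -0.02 (95% interval -0.23 to 0.20, adjusted p = 0.94).

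CANX, the membrane-bound calnexin, stood at 32442, 33112 and 34018 in Control, 28056, 25225 and 27667 in SIRT1 KD, 33445, 30702 and 32550 in IGF2BP2 KD, and 22399, 20922 and 23840 in double KD. It fell in SIRT1 KD (-0.30, adjusted p = 0.0015) and further in double KD (-0.57, adjusted p = 1.5e-06). UGGT1, the enzyme that re-tags misfolded glycoproteins for another folding round, stood at 3982, 4048 and 3903 in Control, 2485, 2298 and 2452 in SIRT1 KD, 3139, 2818 and 3086 in IGF2BP2 KD, and 2010, 2063 and 2074 in double KD. All 4 groups were separate, with falls of 0.72, 0.40 and 0.96 on the log2 scale (adjusted p = 8.5e-08, 1.7e-04 and 1.5e-09).

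DNAJB9, a J-domain protein known to restrain IRE1 and a usual target of the response, behaved differently from the other chaperones. It lies at chr7:108569568-108574850 on the plus strand (ENSG00000128590.5). It stood at 818, 866 and 864 in Control, 952, 904 and 872 in SIRT1 KD, 670, 648 and 700 in IGF2BP2 KD, and 483, 449 and 556 in double KD. SIRT1 KD libraries all lay above Control without passing the test (0.10, 95% interval -0.07 to 0.27, adjusted p = 0.41), IGF2BP2 KD lay below Control (-0.34, adjusted p = 0.0077), and double KD below every other library (-0.78, adjusted p = 6.6e-07). The remaining chaperone genes, SDF2L1 and CRELD2, were called in no comparison in the fit of all 12 libraries. SDF2L1, which works with the J-domain proteins, stood at 258 and 263 in double KD replicates 1 and 3 and at 464 in replicate 2, and without that library it fell in double KD (-0.70, adjusted p = 6.5e-08). CRELD2, a secreted stress-response protein, likewise stood at 236 and 217 against 338, and fell without that library (-0.38, adjusted p = 0.0021). Single knockdowns also passed in some fits. SDF2L1 fell in SIRT1 KD (-0.31) with the 2 groups fitted alone (adjusted p = 7.3e-04) and without double KD replicate 2 (0.0027). In IGF2BP2 KD it fell (-0.33) in the same fits (0.0067 and 0.00252). CRELD2 fell in SIRT1 KD (-0.27) in both fits as well (0.0053 and 0.0138).

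The translocation genes changed least. SEC61A1, the channel's pore subunit, had group means of 6199 ± 89.1, 6755 ± 374, 6262 ± 80.2 and 6251 ± 560 in Control, SIRT1 KD, IGF2BP2 KD and double KD. SEC62 and SEC63, which assist the channel after translation, had Control means of 2511 ± 94.6 and 1597 ± 30.6 and log2 differences between -0.26 and 0.11 against Control. Of the 4 genes, 0 passed the limma test in SIRT1 KD or IGF2BP2 KD, and the counts at an unadjusted p under 0.05, by edgeR and by DESeq2 were also 0. With the 2 groups fitted alone, SEC61A1 rose in SIRT1 KD (0.12, adjusted p = 0.0153) and SEC63 fell in IGF2BP2 KD (-0.16, adjusted p = 0.0437). SEC63 also passed in IGF2BP2 KD without double KD replicate 2 (adjusted p = 0.0376). In double KD it did not pass (-0.26, adjusted p = 0.0839) but did with a replicate block (adjusted p = 0.0418). SEC61B, a small channel subunit, fell in double KD (957 ± 69.3 in Control, 752 ± 146 in double KD, -0.36, adjusted p = 0.013), a call lost without Control replicate 3 (adjusted p = 0.0703). Without double KD replicate 2 its fall was -0.21.

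In the degradation group, SEL1L changed most. SEL1L is the scaffold of the main ERAD ubiquitin ligase complex (chr14:81471549-81533861, minus strand, ENSG00000071537.14). It stood at 4821, 4818 and 4870 in Control, 2489, 2201 and 2539 in SIRT1 KD, 4410, 4032 and 4414 in IGF2BP2 KD, and 1905, 1606 and 2042 in double KD. The 4 groups were separate. SEL1L fell to 49.8% of Control in SIRT1 KD (-1.01, 95% interval -1.18 to -0.84, adjusted p = 4.4e-08) and to 38.3% in double KD (-1.39, -1.56 to -1.22, adjusted p = 4.3e-10), the largest fall of the 37 genes in double KD, and IGF2BP2 KD did not pass the test (-0.18, adjusted p = 0.16). SEL1L passed there with the 2 groups fitted alone (adjusted p = 0.00643) and without double KD replicate 2 (0.0144).

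SYVN1, the ubiquitin ligase HRD1 that SEL1L holds, stood at 2544, 2602 and 2516 in Control, 2202, 1977 and 2050 in SIRT1 KD, 2208, 2543 and 2287 in IGF2BP2 KD, and 1615, 1754 and 1644 in double KD. It fell in SIRT1 KD (-0.30, adjusted p = 0.0027) and double KD (-0.61, adjusted p = 1.4e-06), with the double KD libraries below all others. EDEM3, which trims mannose from misfolded glycoproteins, stood at 1542, 1573 and 1588 in Control, 1084, 1002 and 1072 in SIRT1 KD, 1435, 1258 and 1379 in IGF2BP2 KD, and 979, 958 and 1075 in double KD. It fell in SIRT1 KD (-0.57, adjusted p = 6.5e-06) and double KD (-0.64, adjusted p = 1.2e-06). DERL1, a membrane protein of the retrotranslocation step, stood at 1740, 1688 and 1908 in Control, 1282, 1284 and 1377 in SIRT1 KD, 1823, 1610 and 1854 in IGF2BP2 KD, and 1349, 1010 and 1439 in double KD. Both groups with the SIRT1 hairpin lay below both without it (-0.43, adjusted p = 0.0039, and -0.50, adjusted p = 9.7e-04).

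HERPUD1 and EDEM1 went the other way in SIRT1 KD. HERPUD1, a short-lived organiser of the ligase complex and a usual target of the response (chr16:56932048-56944863, plus strand, ENSG00000051108.15), stood at 2221, 2085 and 2259 in Control, 2849, 2737 and 2659 in SIRT1 KD, 1989, 1997 and 1964 in IGF2BP2 KD, and 1819, 1674 and 2104 in double KD. SIRT1 KD lay above all other libraries, and HERPUD1 rose there to 126% of Control (0.33, 95% interval 0.17 to 0.49, adjusted p = 0.0026). In double KD it fell (-0.24, adjusted p = 0.020) with 1 library inside the Control range, a call lost without Control replicate 1 or 3 (adjusted p = 0.0707 to 0.0848). EDEM1, a mannose-trimming factor like EDEM3, had group means of 4894 ± 50.7, 5507 ± 184, 4332 ± 145 and 4208 ± 228. Its rise in SIRT1 KD (0.17, adjusted p = 0.041) was lost in 8 of the 12 fits without 1 library (adjusted p = 0.0525 to 0.155): any Control or SIRT1 KD library, IGF2BP2 KD replicate 1 or IGF2BP2 KD replicate 3. Its fall in double KD was -0.22 (adjusted p = 0.0082).

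Among the remaining degradation genes, DERL2, ERLEC1 and EDEM2 fell in SIRT1 KD by 0.30, 0.31 and 0.30. In double KD ERLEC1 fell by 0.45 (adjusted p = 0.0045) and DERL2 by 0.23 (adjusted p = 0.019, lost without Control replicate 2 or 3), and EDEM2 did not pass the test (-0.21, adjusted p = 0.11). The SIRT1 KD calls of ERLEC1 and EDEM2 were lost in 7 and 5 of the fits without 1 library (adjusted p = 0.0621 to 0.159 and 0.0526 to 0.167), in each case including every fit without a Control library. OS9, a lectin that hands glycoproteins to the ligase, was not called against Control in any group and was lower in SIRT1 KD than in IGF2BP2 KD (-0.23, adjusted p = 0.011; lost without SIRT1 KD replicate 2 or IGF2BP2 KD replicate 3). DERL3 was near the detection limit, at 7 to 20 normalised counts across the 12 libraries. In IGF2BP2 KD, 0 of the 11 degradation genes passed the limma test in either direction, where 9.39% of all genes fell and 6.86% rose. With 11 genes, 0 cannot be told from these shares, and EDEM3 and EDEM1 came close (adjusted p = 0.0517 and 0.0527). At an unadjusted p under 0.05, 3 were lower and 1 higher. By edgeR 2 were called lower (EDEM1 and EDEM3), and by DESeq2 these 2 were called lower and OS9 higher. With the 2 groups fitted alone, EDEM1, EDEM3, HERPUD1 and SEL1L were called lower and OS9 higher.

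By role, 12 of 18 chaperones, 7 of 11 degradation genes, 1 of 4 sensors and 0 of 4 translocation genes fell in SIRT1 KD. In IGF2BP2 KD the counts were 8, 0, 3 and 0, and in double KD 14, 8, 3 and 1. Over all genes tested the shares that fell were 15.7%, 9.39% and 17.5%, and with 4 genes a count of 0 or 1 cannot be told from these shares. Nor can the 0 of 11 degradation genes in IGF2BP2 KD be told from 9.39%. The median log2 change of the chaperones was -0.32, -0.26 and -0.59 in the 3 groups, and that of the degradation genes was -0.30, -0.13 and -0.45.

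Each hairpin was also compared in cells that carried the other one, which uses a different set of libraries. Double KD and IGF2BP2 KD differ by the SIRT1 hairpin. Between them 23 genes were lower and 1 higher, where 15.2% of all genes were lower and 16.4% higher. None of the libraries in this comparison enter SIRT1 KD against Control, although both comparisons come from 1 fit and 1 estimate of spread. Of the 20 genes that fell in SIRT1 KD against Control, 19 were also lower here, and the exception was EDEM2 (-0.22, adjusted p = 0.092). This overlap was not counted over all genes, so whether it is particular to the list is not known. SEL1L differed by -1.22 (95% interval -1.39 to -1.05, adjusted p = 5.7e-09), PDIA4 by -0.98 (adjusted p = 6.9e-08), DNAJC3 by -0.88 (adjusted p = 2.1e-08) and ATF6 by -0.71 (adjusted p = 8.7e-07). The only higher gene was ERO1A (0.27, adjusted p = 0.0070), a call lost with the 2 groups fitted alone (adjusted p = 0.0612). DNAJB9, ERO1B, SEC61B and OS9 were lower here without a fall in SIRT1 KD against Control. Of these, the SEC61B call was lost in 8 of the 12 fits without 1 library (adjusted p = 0.0508 to 0.115), its difference moving from -0.30 to -0.14 without double KD replicate 2, and the ERO1B call was lost without any 1 of the IGF2BP2 KD libraries (0.0505 to 0.0639). DERL2 and ERLEC1 were each lost in 2 such fits. HERPUD1 and EDEM1, which rose in SIRT1 KD against Control, did not pass the test here (-0.09, adjusted p = 0.37, and -0.04, adjusted p = 0.64).

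Double KD and SIRT1 KD differ by the IGF2BP2 hairpin. Between them 19 genes were lower and 0 higher, where 10.7% of all genes were lower and 11.9% higher. The count of higher genes was also 0 at an unadjusted p under 0.05, by edgeR and by DESeq2. Of the 11 genes that fell in IGF2BP2 KD against Control, 10 were lower here, and the exception was PDIA4 (-0.13, adjusted p = 0.29). Again the overlap over all genes was not counted. The largest differences were those of DNAJB9 (-0.88, 95% interval -1.05 to -0.71, adjusted p = 5.0e-07), HSPA5 (-0.77, adjusted p = 9.5e-07), MANF (-0.57, adjusted p = 1.8e-05), HERPUD1 (-0.56, adjusted p = 2.5e-05) and HYOU1 (-0.53, adjusted p = 1.2e-04). The 4 degradation genes among the 19 were HERPUD1, EDEM1 (-0.39), SEL1L (-0.38) and SYVN1 (-0.31). Fitted on these 2 groups alone, 11 genes passed, where 1129 of all genes were lower and 1085 higher, instead of 1887 and 2093. Calls of 7 of the 19 genes were lost without 1 library, EIF2AK3 and SEC61B in 10 of 12 such fits (SEC61B moving from -0.32 to -0.16 without double KD replicate 2). The SIRT1 transcript itself differed between these 2 groups (-0.38, adjusted p = 0.0016), and its part in the 19 calls was not tested.

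**Figure D3:**
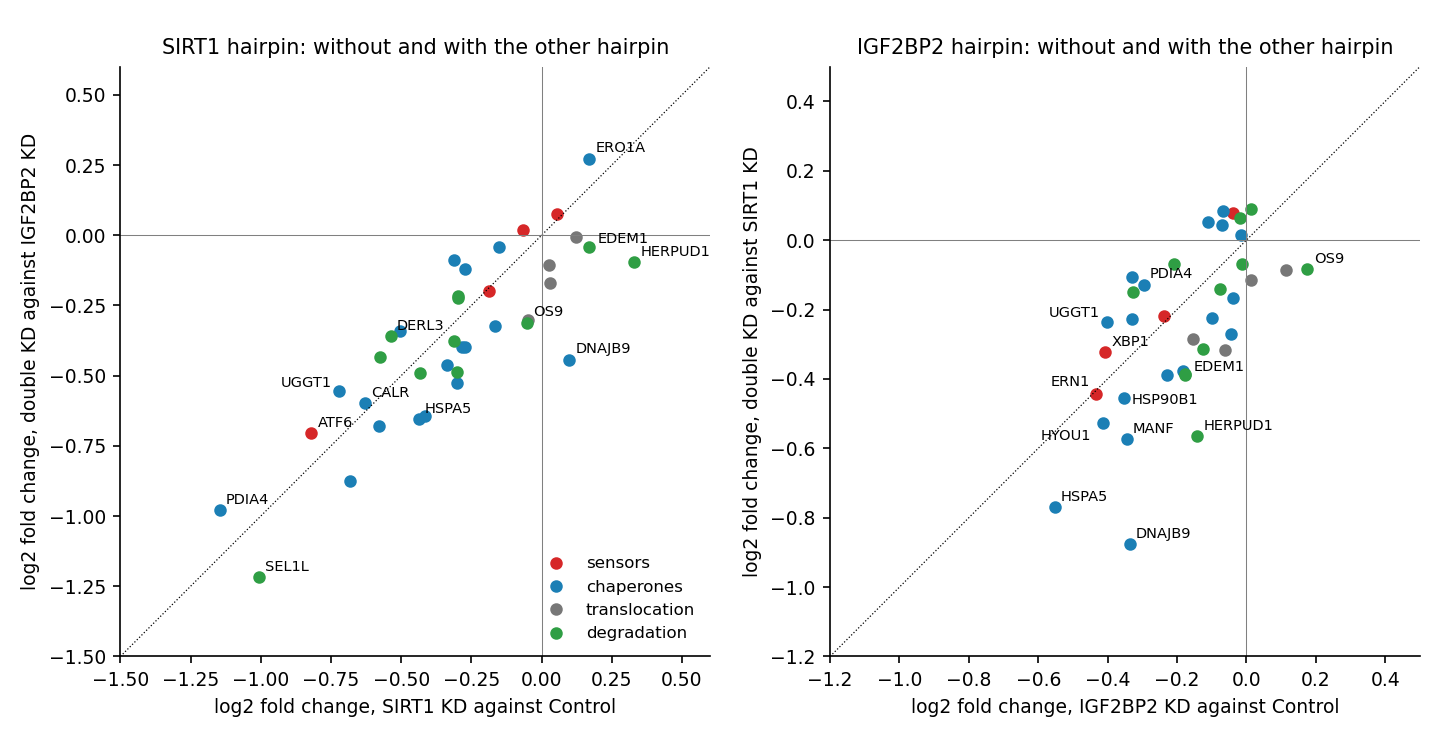
Log2 fold change of the 37 genes for the SIRT1 hairpin (left) and the IGF2BP2 hairpin (right), in cells without (x axis) and with (y axis) the other hairpin, coloured by role; the dotted line marks equal change. The x and y values of a panel share no library. On the left SEL1L and PDIA4 lie furthest down on both axes and HERPUD1 and DNAJB9 lie below the line; on the right most genes lie on or below the line, with DNAJB9 and HERPUD1 furthest below it.

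Whether the double KD departs from the sum of the single knockdowns was tested as an interaction on the log2 scale. For 35 of the 37 genes the interaction did not pass the test, 2 were negative and 0 positive, where 1.16% of all genes were negative and 1.7% positive (204 and 299 genes; 283 and 235 after TMM scaling of the recovered reads). The count of positive interactions was also 0 at an unadjusted p under 0.05, by edgeR and by DESeq2. The 2 genes were DNAJB9 (-0.54, 95% interval -0.78 to -0.30, adjusted p = 0.017) and HERPUD1 (-0.42, -0.65 to -0.20, adjusted p = 0.039), whose double KD values lay below the sum of the single changes. Neither call was stable to the loss of a library. DNAJB9 was lost in 5 of 12 such fits (adjusted p = 0.0504 to 0.0644): without any Control library, SIRT1 KD replicate 1 or IGF2BP2 KD replicate 3. HERPUD1 was lost in 9 of 12 (0.0777 to 0.132), that is without any Control, SIRT1 KD or IGF2BP2 KD library. For HSPA5 the interaction was -0.22 (-0.44 to 0.01, adjusted p = 0.30; 0.035 without double KD replicate 2), and for SEL1L -0.21 (-0.45 to 0.03, adjusted p = 0.36).

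Because many of these genes are known to be switched on together through a shared promoter motif, the ER stress element that ATF6 and the factor NF-Y bind, its positions in the members are shown here. The element searched was CCAAT, any 9 bases, then CCACG, on both strands of RefSeq promoter windows of 300 bases (GRCh38.p14), which run from 250 bases before the start site. Of the 37 members, 34 had a window, and 8 of those 34 genes (23.5%) held the element, against 25 of 27305 genes in the whole table (0.0916%). Among tested genes it was in 16 of 11734. Whole-table counts here and below include the members. The motif is known from genes of this kind, so its excess among them is background and no result of these data. The elements are printed below 5′ to 3′ in the CCAAT orientation, with the searched letters in capitals.
HSPA5, chr9:125241391-125241409, minus strand: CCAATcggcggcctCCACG
HSP90B1, chr12:103930216-103930234, plus strand: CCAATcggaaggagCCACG
HSP90B1, chr12:103930321-103930339, minus strand: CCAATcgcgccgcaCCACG
CALR, chr19:12938384-12938402, minus strand: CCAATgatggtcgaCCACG
CANX, chr5:179698778-179698796, plus strand: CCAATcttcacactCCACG
PDIA6, chr2:10812853-10812871, minus strand: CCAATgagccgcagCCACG
XBP1, chr22:28800603-28800621, minus strand: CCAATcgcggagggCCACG
CRELD2, chr22:49918554-49918572, minus strand: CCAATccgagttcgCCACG
ERO1B, chr1:236282183-236282201, plus strand: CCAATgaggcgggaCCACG
The second ER stress element, searched as ATTGG, any base, then CCACG on both strands, was in HERPUD1, HYOU1 and SDF2L1, against 19 of the 27305 genes (0.0696%). The core TGACGTG, also searched on both strands, was in HYOU1, SEC61A1 and SEC62, against 654 genes (2.40%), and in HYOU1 it overlapped a second element.

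Whole windows are shown for 3 chaperone genes that hold the element and differed in their pattern of calls: HSPA5 and HSP90B1 fell in all 3 knockdown groups, and CALR fell only in the groups with the SIRT1 hairpin. Each is printed in the direction of its gene, with the element in capitals. In HSPA5 it lies 66 to 48 bases before the start site.
HSPA5 promoter, chr9:125241294-125241593, minus strand: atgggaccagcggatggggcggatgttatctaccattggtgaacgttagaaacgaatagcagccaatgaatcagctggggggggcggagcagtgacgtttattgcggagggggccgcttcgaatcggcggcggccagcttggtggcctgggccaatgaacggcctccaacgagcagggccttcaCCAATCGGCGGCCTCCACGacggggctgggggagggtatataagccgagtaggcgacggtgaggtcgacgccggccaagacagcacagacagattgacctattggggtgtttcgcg
HSP90B1 promoter, chr12:103930160-103930459, plus strand: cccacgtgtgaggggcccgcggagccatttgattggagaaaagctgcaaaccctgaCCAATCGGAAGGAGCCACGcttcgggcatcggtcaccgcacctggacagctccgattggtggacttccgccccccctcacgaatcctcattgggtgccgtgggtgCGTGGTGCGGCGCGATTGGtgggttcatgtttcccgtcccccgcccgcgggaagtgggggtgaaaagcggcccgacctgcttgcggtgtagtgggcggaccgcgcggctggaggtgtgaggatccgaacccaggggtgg
CALR promoter, chr19:12938359-12938658, plus strand: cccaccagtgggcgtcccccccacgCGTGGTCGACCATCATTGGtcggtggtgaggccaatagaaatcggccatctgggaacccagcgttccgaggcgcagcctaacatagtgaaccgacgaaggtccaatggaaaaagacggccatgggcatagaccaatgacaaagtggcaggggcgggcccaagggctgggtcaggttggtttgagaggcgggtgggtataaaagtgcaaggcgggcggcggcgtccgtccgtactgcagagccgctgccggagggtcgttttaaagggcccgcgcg
Falls occurred both with and without the element. In SIRT1 KD 5 of the 8 genes with it fell (median log2 change -0.37), and 13 of the 26 without it fell (-0.28). In IGF2BP2 KD the counts were 3 of 8 and 8 of 26 (medians -0.17 and -0.17), and in double KD 7 of 8 and 17 of 26 (-0.56 and -0.43), beside shares of 15.7%, 9.39% and 17.5% of all genes tested. PDIA4 and SEL1L, with the largest falls in SIRT1 KD, had no match in their windows, which says only that these letters are not there. The 8 other tested genes with the element, among them FICD, SERP1 and ALG12, had medians of -0.03, 0.03 and -0.23 in the 3 comparisons.

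**Figure D4:**
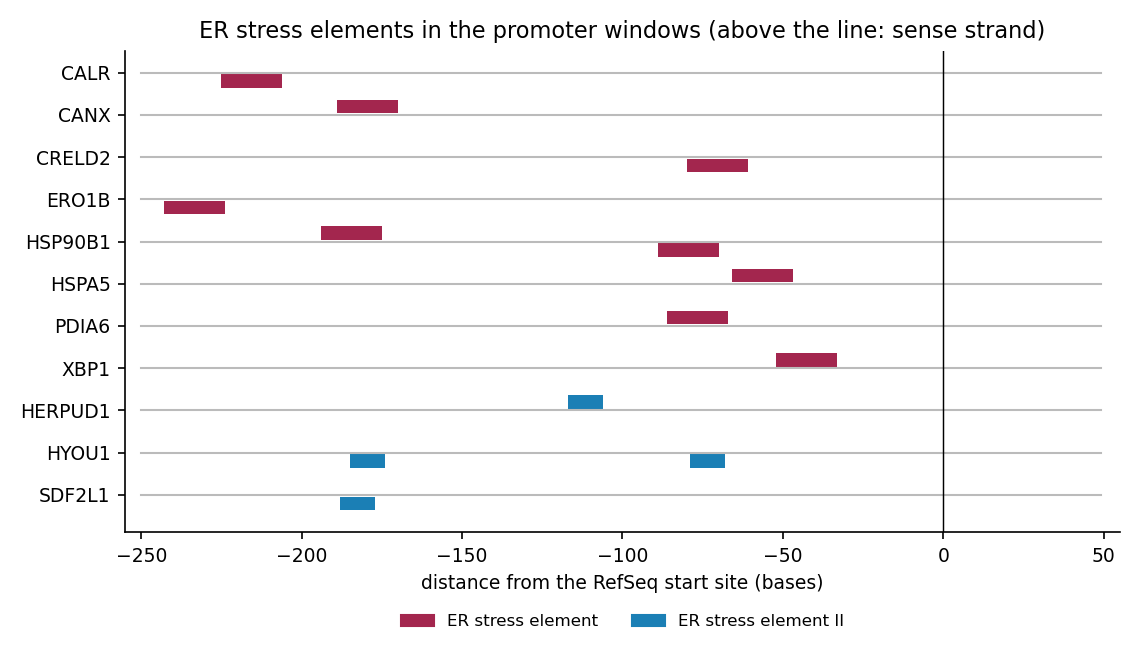
Positions of the ER stress element and the second ER stress element in the promoter windows of the 11 members that hold either (y axis), as distance in bases from the RefSeq start site (x axis), with marks above the line on the strand of the gene and marks below on the other. HSP90B1 and HYOU1 hold a pair of marks each, and CANX, which has several start sites and whose element spans one of them, is drawn for the one that lies furthest from the element.

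The letters CTCAGAT and TCAGATA in the 3′ UTR had been described in an earlier analysis of these same libraries, where they were picked from SIRT1 KD against Control, so the counts here describe the members and are no independent support. In the longest annotated 3′ UTR of each gene (GENCODE 29, GRCh38), either 7-mer was found in 13 of the 37 members (35.1%), against 2625 of 13123 genes (20.003%). The median 3′ UTR was 1573 bases in members and 1327 in all genes. Those of the 13 ran from 867 to 5935 bases, all but that of PDIA6 longer than 1573. Length was not accounted for in any of the counts, so having a 7-mer and having a long 3′ UTR cannot be told apart. The sites of the 4 members with the largest falls in SIRT1 KD among these 13 are shown with 10 bases on each side and the 7-mer in capitals; the coordinates are those of the 7-mer.
ATF6, chr1:161961126-161961132, plus strand, exon 16 of 16: ttgccaactcCTCAGATgcaagacttt
SEL1L, chr14:81474112-81474118, minus strand, exon 21 of 21: tagcacttaaCTCAGATgaatttataa
UGGT1, chr2:128190786-128190792, plus strand, exon 41 of 41: tacaaatgccCTCAGATgtaagaccag
DNAJC3, chr13:95791790-95791796, plus strand, exon 12 of 12: taaaataagtTCAGATAaaatagtggt
In SIRT1 KD against Control 10 of the 13 genes with a 7-mer fell (median log2 change -0.43), as did 10 of the 24 without (-0.27). In double KD against IGF2BP2 KD, 10 of 13 and 13 of 24 were lower (medians -0.46 and -0.32). In IGF2BP2 KD against Control the counts were 3 of 13 and 8 of 24 (-0.11 and -0.17). Over all genes tested 15.7%, 15.2% and 9.39% were lower in these comparisons. PDIA4 and CALR, which fell with the SIRT1 hairpin, held neither 7-mer, and SEC62, ERO1A and ERN1, which held one, did not fall in SIRT1 KD.

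Levels can be compared between genes only per length. Per kilobase of annotated exon (GENCODE 29, matched on gene identifiers without their version), HSPA5 stood at 15524 ± 542 normalised counts in Control (SD, n = 3), the 45th highest of 17316 genes. CALR followed at 11811 ± 148, HSP90B1 at 7526 ± 102, CANX at 7464 ± 178 and P4HB at 5015 ± 87.5, and of these HSP90B1 and CANX did not differ beyond their spread. The genes grouped as sensors were far below these chaperones: XBP1 at 1144 ± 33.8, ATF6 at 359 ± 4.82, EIF2AK3 at 106 ± 3.44 and ERN1 at 60.6 ± 3.82, against a median of 89.6 for all genes. XBP1 still ranked 13th of the 37. DERL3, at 5.34 ± 0.999, was the lowest of the 37.

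Other genes of the same pathways were counted in 6 lists, 103 tested genes in all that are not among the 37. These lists, too, were chosen with earlier results of these libraries known. In SIRT1 KD 28 of the 103 fell and 18 rose, in IGF2BP2 KD 24 fell and 6 rose, and in double KD 40 fell and 16 rose. Over all genes tested 15.7% fell and 12.9% rose in SIRT1 KD, 9.39% and 6.86% in IGF2BP2 KD, and 17.5% and 16.7% in double KD, so the share of the 103 that rose was close to the background in IGF2BP2 KD and double KD. Among 9 genes of glycan trimming and export of folded glycoproteins, 6, 3 and 7 fell in the 3 groups and 0 rose (median -0.34, -0.21 and -0.38). SURF4, a cargo receptor for secreted proteins, fell in SIRT1 KD (-0.72, adjusted p = 7.9e-07) and IGF2BP2 KD (-0.33, adjusted p = 0.0043). LMAN1, the lectin that carries glycoproteins out of the ER, fell by 0.51 and 0.71 in these groups, and MCFD2, its partner, by 0.60 in SIRT1 KD. MLEC, malectin, which binds freshly attached glycans, fell by 1.13 in IGF2BP2 KD (adjusted p = 3.7e-09) and by 1.60 in double KD (adjusted p = 6.3e-12).

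Among 24 other folding enzymes, 6, 6 and 10 fell in SIRT1 KD, IGF2BP2 KD and double KD and 0 rose. The thioredoxin-like TMX4 (-0.75, adjusted p = 1.4e-06), ERP29 (-0.41) and DNAJC10 (-0.28) led in SIRT1 KD, and FKBP14, a prolyl isomerase (-0.66, adjusted p = 5.6e-05), TMX1 (-0.48) and TXNDC5 (-0.78) in IGF2BP2 KD. Of 18 genes of sensor regulation and PERK output, 7 fell and 3 rose in SIRT1 KD, 9 fell and 2 rose in IGF2BP2 KD, and 11 fell and 1 rose in double KD. ATF6B, the relative of ATF6, fell in SIRT1 KD (-0.65, adjusted p = 4.5e-07) and rose in IGF2BP2 KD (0.35, adjusted p = 9.7e-04), and MBTPS1, the Golgi protease that cuts ATF6, fell in SIRT1 KD (-0.36, adjusted p = 2.2e-04). PPP1R15A, which reverses the translation block, rose in SIRT1 KD (0.47) and fell in IGF2BP2 KD (-0.40). ATF4, the transcription factor downstream of PERK, fell in both (-0.47 and -0.57), as did its target CHAC1 (-0.59 and -0.92). Other PERK output genes of the list, DDIT3 and TRIB3, did not follow in SIRT1 KD. Their means were 102% and 101% of Control there, and 74.3% and 72.9% in IGF2BP2 KD. CREB3L2, a relative of ATF6 that drives secretory genes, fell by 0.61 in IGF2BP2 KD and 1.22 in double KD, more than the sum of the single changes (interaction -0.40, adjusted p = 0.013).

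The other lists were mixed, and several of their counts were close to those shares. Of 21 further translocation genes 4 fell and 6 rose in SIRT1 KD, with SPCS3, a signal peptidase subunit, at -1.02 (adjusted p = 4.0e-08) and TRAM2 and SSR3, which sit beside the channel, at 0.53 and 0.53. In IGF2BP2 KD 2 fell and 2 rose: SRP72 was among the lower (-0.26) and SRP14, like it a part of the signal recognition particle, rose (0.39), as did TRAM2 (0.29). Of 23 further degradation genes 4 fell and 5 rose in SIRT1 KD and 4 fell and 0 rose in IGF2BP2 KD. UBXN4, which brings the extracting ATPase to the ER, fell in both (-0.71 and -0.49). NGLY1, which strips glycans from extracted proteins, and HERPUD2 rose in SIRT1 KD (0.50 and 0.38), and the ubiquitin ligase MARCHF6 and the conjugating enzyme UBE2G2 fell in IGF2BP2 KD (-0.53 and -0.36). Of 8 receptors that mark ER for autophagy, 4 rose and 1 fell in SIRT1 KD and 2 rose and 0 fell in IGF2BP2 KD. RETREG3 rose in both (0.54, adjusted p = 1.1e-05, and 0.35, adjusted p = 0.0018), ATL3 and TEX264 rose in SIRT1 KD (0.47 and 0.52), and RETREG2 rose in IGF2BP2 KD (0.27).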

How the data were processed

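RNA of MDA-MB-231 cells was sequenced in 12 libraries, 3 each of Control, SIRT1 KD, IGF2BP2 KD and double KD. Groups and replicate numbers were read from the sample titles. The values used are a signal deposited by the authors, gene counts that they had divided by 1 size factor for each library, over 60649 gene identifiers, of which 60507 were paired with a symbol. CASAVA, STAR, DESeq2 and GRCh38.p13 are named, with no version, per the submitters' processing notes. Not given in the sources used here are the gene annotation and whether counting used strand. A gene could therefore not be separated from an overlapping or antisense partner, or from a near-identical pseudogene (as of HSP90B1 and PDIA3). Column names are short codes, and the code for SIRT1 KD was assigned by elimination; it was checked against a table of log2 ratios that the authors deposited with full names (11503 genes, SD of the difference at most 0.004 for the same library and at least 0.132 for any other). A table of counts that the authors deposited has 12 columns without sample names, which were not used.

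In all 12 libraries 100% of values were whole multiples of 1 step within 0.001, so reads could be recovered. Genes kept by filterByExpr of edgeR 4.0.16 (minimum count 10) were fitted with limma 3.58.1 in R 4.3.3 (trend and robust options) on log2(normalised count + 1), 4 group means being estimated, and p-values were adjusted by the Benjamini-Hochberg method over 17576 genes. With a pseudocount of 1, changes of low genes are understated. Comparisons numbered 7, the interaction being double KD minus SIRT1 KD minus IGF2BP2 KD plus Control. Intervals are 95% intervals from this fit, and standard deviations are over 3 libraries. The code was tested on simulated data. Alternatives were other pseudocounts, no filter, edgeR and DESeq2 1.42.0 on recovered reads, TMM scaling, the compared groups alone, a replicate block and leaving out each library.

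Values in every library are given for members called with a change of at least 0.5 on the log2 scale in any comparison. Those of the 4 sensors are given likewise. Of each further list, up to 3 genes with the smallest adjusted p in each single knockdown are named. DDIT3 and TRIB3 are named in addition. The members, lists and 7-mers were chosen with earlier results of these data known. Promoters are from RefSeq (GRCh38.p14; 34 of the 37 genes matched) and 3′ UTRs from GENCODE 29, with coordinates in GRCh38; the base at the start site counts as 0. The whole promoter is printed for 3 of the 8 members with the element and the element alone for all 8.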

Additional observations from a re-analysis of the deposited data

Results flagged for a closer look

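For DNAJB9 and HERPUD1 limma's interaction term passed the test in the fit of all 12 libraries. The difference that came with the IGF2BP2 hairpin was larger in cells with the SIRT1 hairpin than in cells without it. Neither call was stable: DNAJB9 was lost in 5 and HERPUD1 in 9 of the 12 fits without 1 library. DNAJB9 had an interaction of -0.54 on the log2 scale (adjusted p = 0.017): the IGF2BP2 hairpin came with a difference of -0.34 in cells without the SIRT1 hairpin and -0.88 in cells with it. HERPUD1 had an interaction of -0.42 (adjusted p = 0.039), with differences of -0.14 and -0.56. In both genes the 3 libraries of SIRT1 KD lay above those of Control and the mean of double KD lay below that of IGF2BP2 KD. No other of the 37 genes passed this test in the fit of all 12 libraries. SIRT1 mRNA stood at 48.4% of Control in double KD and 63.2% in SIRT1 KD, and its part in these interactions was not tested.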

How the results depend on the processing

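None of the log2 differences of the 37 genes in the 7 comparisons changed sign while called, and of 127 calls 99 held in every alternative run and 101 in every fit that left out 1 library. The numbers of members changed moved by over 1.5 times in these cases. With only the compared groups fitted, the spread is estimated from those 2 groups alone. There 19 instead of 11 changed in IGF2BP2 KD against Control and 11 instead of 19 in double KD against SIRT1 KD. Over all genes the falls went from 1651 to 2771 and from 1887 to 1129 in these comparisons. The rises went from 1206 to 2345 and from 2093 to 1085. In SIRT1 KD against Control the falls over all genes went from 2758 to 3996 and the rises from 2272 to 3798. In double KD against Control they went down, the falls from 3079 to 2356 and the rises from 2939 to 2070. Leaving out 1 library at a time gave 9 to 18 for IGF2BP2 KD against Control, the highest without double KD replicate 2. For the interaction it gave 0 to 4 instead of 2. It was 0 without any Control library, SIRT1 KD replicate 1 or IGF2BP2 KD replicate 3, and 4 without double KD replicate 2. Without that last library, calls over all genes also became more frequent. They were 2751 falls and 2286 rises in IGF2BP2 KD against Control. Interactions were 706 negative and 1065 positive, instead of 204 and 299. The cause was not tested. Other pseudocounts (0.5 and 5), no filter, edgeR, DESeq2 and TMM scaling kept every count within 1.5 times.

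Same-numbered libraries of different groups did not deviate together (correlations of deviations from the group means -0.370 to 0.297 over 18 pairs, against -0.411 to 0.356 over 36 pairs with other numbers), so the numbers were not taken as pairs. With a replicate block the numbers of members changed were 22, 13 and 28 for SIRT1 KD, IGF2BP2 KD and double KD against Control, 20 and 24 for double KD against SIRT1 KD and IGF2BP2 KD, 24 for SIRT1 KD against IGF2BP2 KD and 2 for the interaction. Precision is limited by 3 libraries a group, by the lower depth of double KD replicate 2 and, for DERL3, by counts of 7 to 20.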
